A study of Mus musculus with 220 samples.

Results

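Interferon-stimulated genes are the transcripts that cells make when type I interferon reaches them, and 37 of them were followed here in endothelial cells of the mouse lymph node. The genes were taken by symbol from a list of known interferon-stimulated genes, and all 37 were found among the 24049 gene symbols of the deposited table. Single-cell RNA sequencing gave 1 library per cell for 220 cells of C57BL/6 mice, sorted by flow cytometry after dissociation of the nodes. Untreated mice gave 32 blood endothelial cells (BEC), which line the vessels of the node in general, and 79 homeostatic high endothelial cells (HEC), which line the venules where lymphocytes leave the blood. Mice whose skin was treated with 4% oxazolone, a contact sensitiser, gave 65 inflamed HEC, harvested on day 3. Mice given 1 intraperitoneal injection of LTBR-Ig, a soluble decoy form of the lymphotoxin beta receptor, gave 44 dedifferentiated HEC, harvested on day 7. The homeostatic HEC serve as the reference for both treatments, and no vehicle or control-antibody group was analysed here. For the sort gate, the age and number of the mice, the chips and the capture days, nothing is given in the sources used here.

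Type I interferons are secreted by cells that sense viral nucleic acid, and they bind a receptor made of IFNAR1 and IFNAR2. The receptor's kinases JAK1 and TYK2 phosphorylate STAT2, which acts with IRF9 in a complex that binds a DNA element called the interferon-stimulated response element (ISRE), and IRF7 amplifies the loop. The induced proteins sense foreign RNA and DNA, block viral entry and translation, degrade RNA, tether virions or tag proteins with ISG15, and several of the same genes have a low resting level in uninfected tissue.

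Promoters of some members named below are shown because they carry the letters of that element. The window from 250 bases before to 50 bases after the RefSeq start (GRCm38.p6) was available for 27 of the 37 members. GAAA and GAAA with any 2 bases between them, searched on both strands, occurred in the window of 12 of these 27 members (44.4%) and of 3.99% of all 27025 genes with such a window. In the 250 bases before the start alone they occurred in 8 of 27 members (29.6%) and in 3.46% of genes. TTCNNNGAA, the letters of the gamma-activated element GAS, which is its own reverse complement, occurred in 9 of 27 (33.3%) and in 9.55% of genes. A match is a run of letters and not a measured binding site, and matches may overlap each other. The stretches below run 5′ to 3′ on the gene's strand from 160 to 31 bases before the start, and capitals mark matches to that ISRE-type pattern or its reverse complement.
Ifit3 (chr19:34583369-34583498, + strand): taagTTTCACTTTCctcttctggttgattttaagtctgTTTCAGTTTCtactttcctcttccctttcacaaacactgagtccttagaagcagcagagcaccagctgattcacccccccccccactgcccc
Ifit1 (chr19:34640729-34640858, + strand): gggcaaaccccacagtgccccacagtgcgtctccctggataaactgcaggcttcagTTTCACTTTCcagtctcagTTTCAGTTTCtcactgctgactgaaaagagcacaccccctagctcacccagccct
Isg15 (chr4:156200849-156200978, - strand): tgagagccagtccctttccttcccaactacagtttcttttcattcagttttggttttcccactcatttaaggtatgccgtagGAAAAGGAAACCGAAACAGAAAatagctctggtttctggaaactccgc
Bst2 (chr8:71537503-71537632, - strand): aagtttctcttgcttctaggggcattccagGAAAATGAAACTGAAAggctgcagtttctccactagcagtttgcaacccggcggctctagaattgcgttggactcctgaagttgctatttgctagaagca
Rsad2 (chr12:26456483-26456612, - strand): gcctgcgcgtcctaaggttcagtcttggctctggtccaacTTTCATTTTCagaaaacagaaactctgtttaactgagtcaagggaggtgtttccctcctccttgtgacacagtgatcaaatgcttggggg
Ifit3 and Ifit1, neighbouring genes of the IFIT cluster on chromosome 19, each had 2 matches on the reverse strand, the same 2 decamers in the same order. In Isg15 3 matches overlapped, in Bst2 2 overlapped, and Rsad2 had 1. Irf7, Oasl2, Ube2l6 and Irf1 had no ISRE-type match in their windows, while Irf1 had a GAS match.

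Values are FPKM as deposited, that is, fragments counted per transcript length and per library total. The level of a gene in a group is the mean ± SD over cells of log2(FPKM + 1), a difference is a difference of these means, and a member is called higher or lower where it is 1 or more in size. Such a difference understates the ratio of low genes. Inflamed cells 43 and 60 had near-identical profiles (r 0.988 over log2 values, against 0.701 for the next closest pair of all cells), so they were averaged and counted once, leaving 64 inflamed HEC and 219 cells. Each group counts as 1 sample, since cells of 1 sample are not replicates of a condition. No test or p-value was possible, the SD is the spread between cells, and group, mouse, chip and harvest day cannot be told apart. Intervals are exact Clopper-Pearson 95% intervals of a share of cells and cover counting error only.

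Median approximated depth was 2178808 fragments in BEC, 1975933 in homeostatic, 2320698 in inflamed and 2286722 in dedifferentiated HEC. The median number of detected genes (FPKM of at least 1) was 2870.5, 3842, 3961 and 3075 in the same order. The labelled cell types were checked against markers. The 6 HEC markers, Glycam1, Chst4, Fut7, Gcnt1, Ccl21a and Ackr1, were all higher in homeostatic HEC than in BEC by at least 6.09. They were higher than in BEC by at least 3.84 in inflamed and 2.25 in dedifferentiated HEC. Against homeostatic HEC, 4 of the 6 were lower in inflamed and 3 in dedifferentiated HEC. All 32 BEC held at least 2 of the 6 at an FPKM of 10. Of 7 blood endothelial markers, Kdr alone was lower in homeostatic HEC than in BEC (-2.77). Of 4 lymphatic endothelial markers, Prox1 was listed at 0 in every HEC, but Lyve1 was higher in inflamed than in homeostatic HEC (1.54) and than in BEC (1.87), at an FPKM of 1 in 31.2% and 11.4% of inflamed and homeostatic HEC and in 0 BEC, and reached 725 in 1 inflamed cell. Flt4, another of the 4, went the other way and was lower than in BEC in homeostatic (-1.73), inflamed (-1.58) and dedifferentiated HEC (-1.64). No cell held 2 of the 4 at an FPKM of 10. Of 26 leukocyte markers, 1, Tcf4, reached an FPKM of 10 in most cells of each group, and endothelium expresses it too. Summed over these markers the FPKM ranged from 4.83 to 784 in BEC, 19 to 6699 in homeostatic, 19.3 to 1720 in inflamed and 1.97 to 1772 in dedifferentiated HEC. Lyz2 was listed at 0 in every cell, and Cd3e in every cell but 1 inflamed HEC (FPKM 0.31), while other markers were high in single cells. The myeloid sum reached 2700.4 in a homeostatic HEC and the T lymphocyte sum 778 in a dedifferentiated one, 6 homeostatic HEC held at least 2 B lymphocyte markers at an FPKM of 10, and 7 held at least 2 of plasmacytoid dendritic cells, Tcf4 included. Coro1a, of leukocytes in general, was higher in homeostatic HEC than in BEC (1.71) and lower in dedifferentiated HEC (-1.20). At least 2 leukocyte markers reached an FPKM of 10 in 5 BEC and in 36, 23 and 11 homeostatic, inflamed and dedifferentiated HEC, and counts without these cells are given below. Of 11 dissociation and heat shock genes, 9 were higher and 1 lower in homeostatic HEC than in BEC, 6 were lower in inflamed and 4 lower in dedifferentiated than in homeostatic HEC. Their part in the differences below was not tested.

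Apart from Ifitm3, most members were high in some cells and near 0 in others, and this held for abundant members such as Rtp4, Ifi44 and Ifi35 too. Ifitm3, a membrane protein that stops virus at the endosome, stood above the rest. It reached an FPKM of 10 in every cell, and its level was 11.21 ± 1.49 in BEC, 11.90 ± 1.08 in homeostatic, 13.01 ± 0.69 in inflamed and 12.20 ± 0.72 in dedifferentiated HEC. Bst2, or tetherin, which holds budding virions at the cell surface, came next with 7.36 ± 3.21, 6.31 ± 2.83, 8.37 ± 1.8 and 6.96 ± 2.88. Rtp4, Ifi44 and Ifi35 completed the 5 highest mean levels. At the other end was Mx1, a GTPase against influenza virus whose gene is known to be defective in C57BL/6, at an FPKM of 1 in 6.25% of BEC, 7.59% of homeostatic, 12.5% of inflamed and 2.27% of dedifferentiated HEC. Mx1 was the 1 member that did not pass the filter on detection, a mean share of 10% of cells over the 4 groups, so that 36 of 37 passed, with 8388 genes in all.

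**Figure D1:**
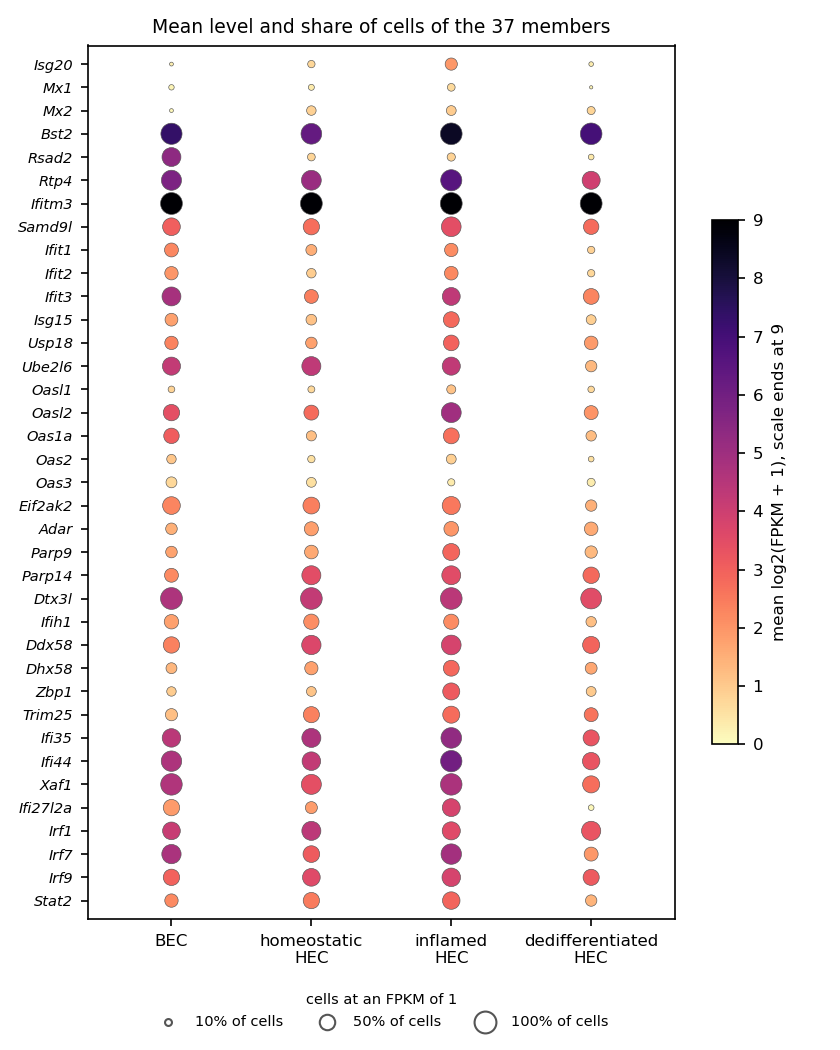
Mean log2(FPKM + 1) (colour, scale ending at 9) and share of cells detected at FPKM 1 (dot area) of the 37 members (rows) in the 4 groups (columns). Ifitm3 and Bst2 are high in all groups, Rsad2 is high in BEC alone (75% of cells, against 14.1% or less in the HEC groups), and Zbp1 stands out in inflamed HEC (60.9%).

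By group, 28 of the 37 members had their highest mean in inflamed HEC, against 43.7% of the genes past the filter. BEC were highest for 7 members (20.5% of all genes), namely Ifit1, Ifit3, Oas1a, Oas2, Oas3, Rsad2 and Dtx3l, and homeostatic HEC for Irf1 and Ube2l6 (26.8% of all genes). None was highest in dedifferentiated HEC, which were highest for 9.07% of all genes. The lowest mean was in dedifferentiated HEC for 21 members (39.1% of all genes), in BEC for 11 (45%) and in homeostatic HEC for 5 (8.79%).

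The first comparison asks how the venule cells of untreated mice differ from other blood endothelial cells. A small set of members was lower in homeostatic HEC than in BEC, led by Rsad2, and members were higher less often than genes in general. Of the 37 members, 7 were lower, where 4.52% of all genes were, and 3 were higher, where 18.7% of all genes were. The median member difference was -0.08 against 0.30 over all genes.

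Rsad2, or viperin, an enzyme that makes a chain-terminating nucleotide, had FPKM from 0 to 777 in BEC with a median of 57.9, and from 0 to 1684 in homeostatic HEC with a median of 0. An FPKM of 1 was reached by 24 of 32 BEC (75%, 56.6 to 88.5) and by 10 of 79 homeostatic HEC (12.7%, 6.24 to 22). Most BEC thus carried the transcript and most HEC did not, although the ranges overlapped and 1 HEC exceeded every BEC. The level was 5.35 ± 3.28 in BEC and 0.80 ± 2.19 in homeostatic HEC, a difference of -4.55. It was the 1 member of this comparison whose difference exceeded the SD over cells of both groups, as 2.47% of all genes did. From arithmetic means of FPKM the log2 ratio was -2.23, since 3 cells held 90.6% of the summed Rsad2 of homeostatic HEC. In the treated groups Rsad2 stayed near the homeostatic value: 9 of 64 inflamed HEC (14.1%, 6.64 to 25) and 3 of 44 dedifferentiated HEC (6.82%, 1.43 to 18.7) reached an FPKM of 1.

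Ifit3, of the family that binds foreign RNA and blocks its translation, ranged from 0.18 to 2036 in BEC with a median of 25.4, and from 0 to 2333 in homeostatic HEC with a median of 0.31. The level was 4.83 ± 3.97 in BEC and 2.41 ± 3.39 in HEC, a difference of -2.42. Its relative Ifit2 had a difference of -1.04 (1.99 ± 2.90 in BEC, 0.94 ± 2.05 in HEC), and Ifit1 one of -0.74. Ifit2 was near the limit: leaving out any of 8 single BEC brought it to between -0.97 and -0.79.

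Oas1a makes the 2′-5′ oligoadenylate that activates RNase L, and lay at 3.08 ± 3.41 in BEC and 1.22 ± 2.54 in homeostatic HEC, a difference of -1.86. Its FPKM ran from 0 to 842 with a median of 1.28 in BEC, and from 0 to 783 with a median of 0 in HEC. Irf7, the transcription factor that amplifies interferon production, had a median FPKM of 58.3 in BEC (0 to 882) and 5.79 in homeostatic HEC (0 to 1049). It was at an FPKM of 1 in 78.1% (60 to 90.7) of BEC and 58.2% (46.6 to 69.2) of HEC, with levels of 4.76 ± 3.27 and 3.11 ± 3.02 and a difference of -1.66. Xaf1, a partner of the apoptosis inhibitor XIAP, had a difference of -1.18. Bst2 had one of -1.06, which leaving out any of 8 BEC or 11 homeostatic HEC brought under 1 in size (-0.90 without BEC 2).

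On the higher side, Ddx58 encodes RIG-I, a sensor of uncapped viral RNA, and lay at 2.38 ± 2.40 in BEC and 3.67 ± 2.71 in homeostatic HEC (1.29). An FPKM of 1 was reached in 56.2% (37.7 to 73.6) of BEC and 78.5% (67.8 to 86.9) of HEC. Trim25, a ubiquitin ligase that acts on RIG-I, differed by 1.13 (1.23 ± 1.8 and 2.36 ± 2.45), and Parp14, an ADP-ribosyltransferase, by 1.28 (2.21 ± 2.75 and 3.49 ± 2.51). Of the 5 genes of nucleic acid sensing, Trim25 included, 2 passed 1 and the others lay between 0.16 (Zbp1) and 0.44 (Dhx58), where 67.2% of all genes had positive differences. Of the 3 IFIT genes, 2 were lower.

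These splits depended on scaling. Where cells were rescaled by their median ratio to the mean profile of widely detected genes, the median of all genes moved from 0.30 to 0.01, and 0 members were higher and 13 lower, where 10.4% and 11.3% of all genes were. With cells matched on gene number, 2 were higher and 13 lower, among 53 homeostatic HEC and 13 BEC, where 16.4% and 10.4% of all genes were. Without cells carrying leukocyte markers, 5 were higher and 4 lower, where 19.5% and 4.69% of all genes were. Ifit2, Bst2 and Xaf1 then no longer counted as lower. Rsad2, Ifit3, Oas1a and Irf7 were lower under each of these 3 alternatives, with Rsad2 at -5.21 after rescaling and -5.33 after matching.

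**Figure D2:**
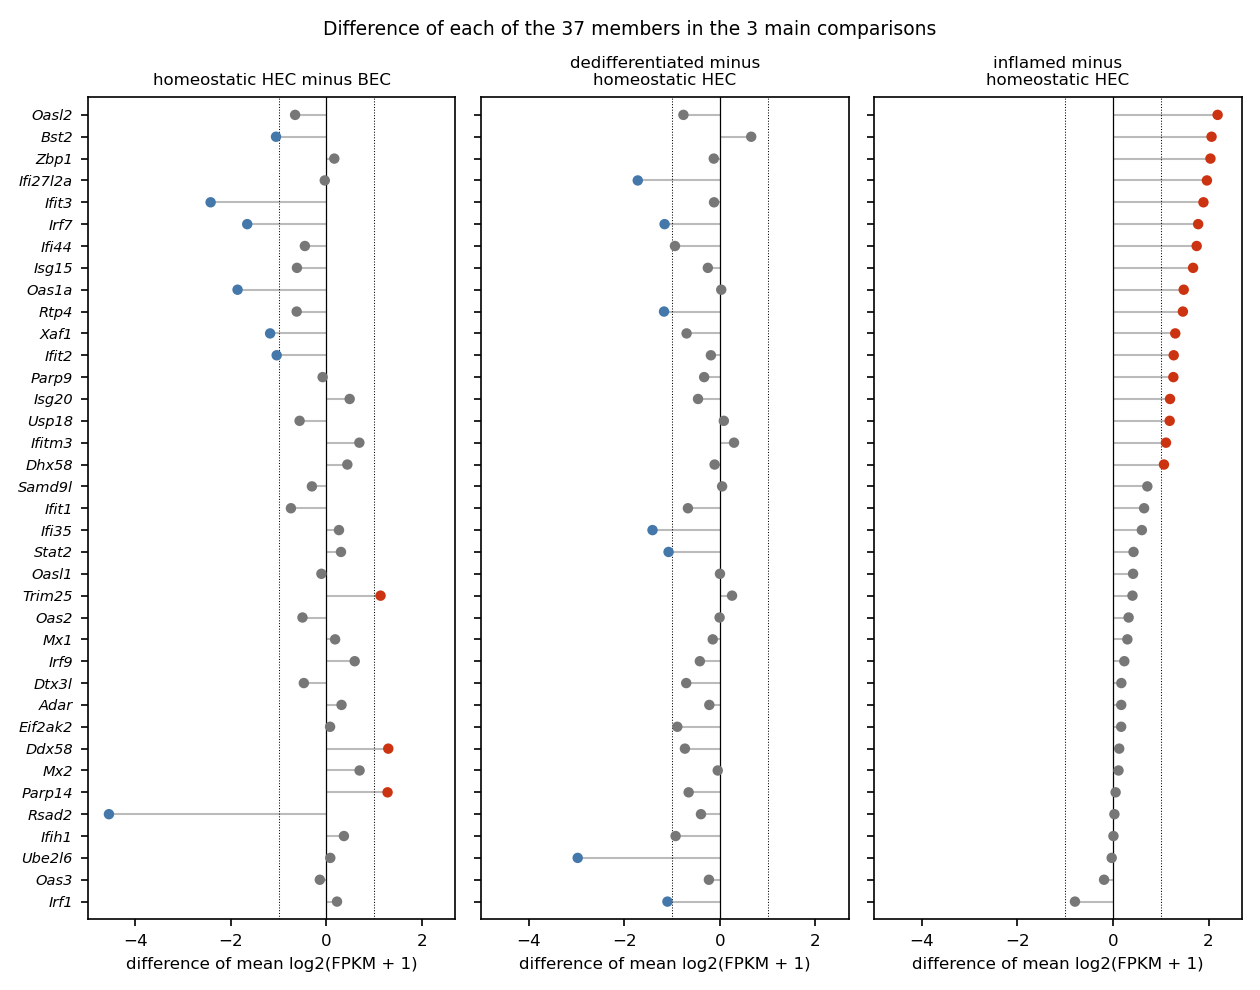
Difference of mean log2(FPKM + 1) of each of the 37 members (rows, ordered by the difference of inflamed and homeostatic HEC) in the 3 main comparisons, with dotted lines at -1 and 1, red points for members at 1 or more and blue points for those at -1 or less. The inflamed panel has 17 red points and none blue, and Rsad2 lies far to the left (-4.55) in the panel of homeostatic HEC and BEC.

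The next comparison asks what differs in the venule cells of a node draining inflamed skin. Part of the interferon-stimulated genes had higher levels in inflamed than in homeostatic HEC: 17 of 37 members were higher and 0 lower, where 6.18% of all genes were higher and 2.94% lower. In all, 34 members had a positive difference (91.9%, against 60.1% of all genes), and the median was 0.65 against 0.11. The higher members spanned sensors, effectors, the ISG15 system and the factor Irf7, but not Rsad2 (0.03), Ube2l6 (-0.03) or Irf1 (-0.80).

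Oasl2, an OAS-like protein, had the highest difference. Its FPKM was 0 to 398 with a median of 0.74 in homeostatic HEC and 0 to 545 with a median of 41.3 in inflamed HEC, so that the middle of the group was barely detected in homeostatic and high in inflamed HEC, while the ranges overlapped. The level went from 2.78 ± 3.17 to 4.97 ± 2.99, a difference of 2.19, and detection (FPKM of 1) from 46.8% of cells (35.5 to 58.4) to 82.8% (71.3 to 91.1). Zbp1, a sensor of Z-form nucleic acid, had FPKM of 0 to 1098 (median 0) in homeostatic and 0 to 636 (median 2.29) in inflamed HEC. Its share of cells went from 20.3% (12 to 30.8) to 60.9% (47.9 to 72.9), and its difference was 2.04. The highest single cell was thus a homeostatic one, and the difference lay in the number of cells.

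Bst2 behaved differently, since nearly every cell had it already. Its FPKM was 0 to 2397 with a median of 140.3 in homeostatic HEC and 0.67 to 2079 with a median of 467 in inflamed HEC, a difference of 2.06 (6.31 ± 2.83 and 8.37 ± 1.8). Ifitm3 had a median FPKM of 4360 (22 to 11782) in homeostatic and 9067 (1639 to 19700) in inflamed HEC. Its difference of 1.11 was the 1 that exceeded the SD over cells of both groups, as 0.346% of all genes did. It fell under 1 where cells were rescaled to the same summed FPKM.

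Isg15, the ubiquitin-like protein itself, lay at 1.15 ± 2.28 in homeostatic and 2.83 ± 2.90 in inflamed HEC (1.68), with 24.1% (15.1 to 35) and 53.1% (40.2 to 65.7) of cells at an FPKM of 1. Usp18, the protease that removes ISG15 and damps the interferon receptor, had a difference of 1.19, while Ube2l6, the enzyme that conjugates ISG15, stayed at 4.30 ± 3.31 and 4.28 ± 3.56. The 3 genes of ISG15 conjugation therefore did not share a direction of 1 or more.

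Irf7 had a median FPKM of 5.79 in homeostatic and 24.8 in inflamed HEC, and no inflamed cell was listed at 0 (0.18 to 780). Its level was 3.11 ± 3.02 and 4.89 ± 2.7, a difference of 1.78. The other transcription factors differed less, with 0.43 for Stat2, 0.24 for Irf9 and -0.80 for Irf1, a factor that interferon gamma and NF-kB signalling also induce. Irf1 was at an FPKM of 1 in 75.9% (65 to 84.9) of homeostatic and 68.8% (55.9 to 79.8) of inflamed HEC.

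Of the IFIT genes, Ifit3 had a difference of 1.89 (2.41 ± 3.39 and 4.30 ± 3.73) and a median FPKM of 0.31 and 10.5, and Ifit2 a difference of 1.27. Ifit1 had 0.65. Among the OAS genes, Oas1a followed Oasl2 with 1.48, and Oasl1 (0.42), Oas2 (0.33) and Oas3 (-0.19) did not reach 1. Ifi27l2a, an interferon-induced gene, went from 1.84 ± 3.21 to 3.80 ± 3.83 (1.97), and its share of cells from 30.4% (20.5 to 41.8) to 67.2% (54.3 to 78.4). Ifi44 differed by 1.75, Rtp4 by 1.46, Xaf1 by 1.30, the ADP-ribosyltransferase family member Parp9 by 1.26, the RNA exonuclease Isg20 by 1.19 and Dhx58, the LGP2 regulator of RIG-I-like sensing, by 1.07. Dhx58 fell under 1 on leaving out any of 8 inflamed cells (0.97 without cell 34). Ddx58 (0.13), Parp14 (0.06), Trim25 (0.41) and Ifih1, the sensor MDA5 (0.01), did not reach 1, so that of the 5 genes of nucleic acid sensing Zbp1 and Dhx58 were called.

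**Figure D3:**
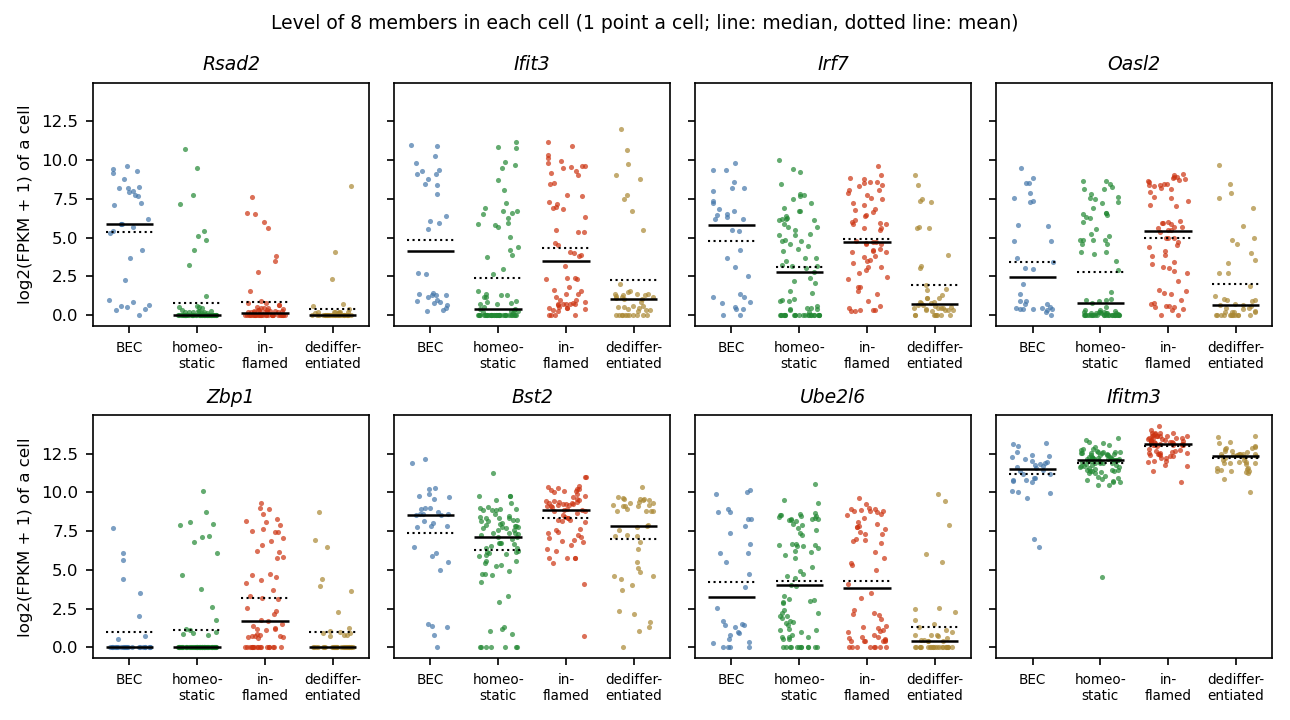
Log2(FPKM + 1) of 8 members in each of the 219 cells (1 point per cell), by group, with the median as a solid and the mean as a dotted line. Rsad2 is high in most BEC and near 0 in most HEC, Oasl2 and Zbp1 have more high cells among inflamed HEC, Ube2l6 has few high cells among dedifferentiated HEC, and Ifitm3 is high in nearly all cells.

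All 17 members stayed past 1 with cells rescaled by median ratio (17 higher and 0 lower), where 5.69% and 2.61% of all genes were. With cells matched on gene number 15 of them did (15 higher and 1 lower), where 5.53% and 5.15% of all genes were. Leaving out cells with leukocyte markers gave 15 higher members and 1 lower, 14 of the former among the 17. Without those cells 7.94% of all genes were higher and 4.60% lower. From arithmetic means 13.7% of all genes and 12 members were higher, of which 10 were among the 17. Ifit3 (0.89), Irf7 (0.77), Oas1a, Rtp4, Usp18, Ifi44 and Xaf1 were the others of the 17, so for these the ratio of mean FPKM was smaller than the difference of mean log2 values. At a pseudocount of 10 only 6 of the 17 stayed past 1, namely Ifit3, Oasl2, Bst2, Ifi44, Ifi27l2a and Ifitm3. At that pseudocount 1.35% of all genes were higher.

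The dedifferentiated cells came from mice in which lymphotoxin beta receptor signalling, which maintains HEC, had been blocked. Members were lower or near the level of homeostatic HEC: 7 of 37 were lower and 0 higher, where 10.2% of all genes were lower and 0.894% higher. The median was -0.39 against -0.30 over all genes, and 7 members had a positive difference (18.9%, against 24.8% of all genes), so the median of the list lay close to that of all genes. No member had a difference beyond the SD over cells of both groups, as 0.274% of all genes did.

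Ube2l6 had the largest difference. Its FPKM was 0 to 1471 with a median of 15.3 in homeostatic HEC and 0 to 967 with a median of 0.33 in dedifferentiated HEC, and the levels were 4.30 ± 3.31 and 1.33 ± 2.50, a difference of -2.97. An FPKM of 1 was reached in 60 of 79 homeostatic HEC (75.9%, 65 to 84.9) and 12 of 44 dedifferentiated HEC (27.3%, 15 to 42.8). The mean levels of BEC, homeostatic HEC and inflamed HEC lay between 4.22 and 4.30. Ifi27l2a reached no more than an FPKM of 3.82 in any dedifferentiated cell and was listed at 0 in 41 of 44, against a highest value of 2159 in homeostatic HEC, and its difference was -1.72 (-6.17 from arithmetic means).

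Of the 4 transcription factors 3 were lower, though none of the 3 stayed past 1 after rescaling by median ratio or matching on gene number. Irf7 lay at 1.95 ± 2.64 (-1.15), Irf1 at 3.27 ± 3.11 (-1.09), Stat2, a subunit of the interferon-activated complex, at 1.42 ± 2.27 (-1.07), and Irf9, which did not pass, at 3.16 ± 3.32 (-0.42). Ifi35 differed by -1.41 and Rtp4 by -1.17. Bst2 (0.66), Ifitm3 (0.30) and Trim25 (0.26) were the highest differences, and Ifit3 (-0.12), Isg15 (-0.25), Zbp1 (-0.12) and Usp18 (0.09) lay near the homeostatic level.

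This set also depended on scaling. After rescaling by median ratio the median of all genes moved from -0.30 to 0.17, and 3 members were higher and 2 lower, where 11.2% and 1.38% of all genes were. With cells matched on gene number, 22 dedifferentiated and 26 homeostatic HEC gave the same counts, 3 higher and 2 lower, where 8.76% and 6.29% of all genes were. Without cells carrying leukocyte markers 8 members were lower, where 15.1% of all genes were, and Rtp4 (-0.81) no longer counted. Ube2l6 (-2.33 and -2.69) and Ifi27l2a (-1.55 and -1.53) were the 2 in both cases. Irf1 lay at 0.00396 after rescaling, and Irf7 (0.61) and Rtp4 (0.54) were above 0 after matching.

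The treated groups were also set beside BEC. These comparisons share the BEC with the first, as all 3 main comparisons share the homeostatic HEC. Inflamed HEC were higher than BEC for 13 members and lower for 1, Rsad2 at -4.52, where 24.2% and 4.02% of all genes were. The highest differences there were Zbp1 (2.20), Ifi27l2a (1.93) and Ifitm3 (1.8), while Irf7 (0.12) and Xaf1 (0.12) in inflamed HEC lay near their BEC level. Dedifferentiated HEC were higher than BEC for 1 member, Trim25 (1.39), and lower for 14, where 11.3% and 9.05% of all genes were. Set directly beside each other, inflamed HEC exceeded dedifferentiated HEC by 1 or more for 21 members and were lower for 0. Of all genes, 17.2% were higher and 1.42% lower. All 37 member differences were above 0, as were those of 79.4% of all genes, with medians of 1.17 and 0.42. Inflamed HEC were thus higher for most genes. The highest were Ifi27l2a (3.68), Oasl2 (2.95), Ube2l6 (2.94) and Irf7 (2.94).

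Most differences came with a difference in the share of cells that had the transcript, with exceptions in each treated group. Calls were made on the mean of log2(FPKM + 1) over all cells, which the share of positive cells itself moves. Called members therefore tend to differ in share by construction, and these shares were not computed for other called genes. Among the 17 members higher in inflamed HEC, the share at an FPKM of 1 was higher for 16, by a median of 23.2 percentage points and at most 40.7, for Zbp1. Within the cells at an FPKM of 1 or more, the mean log2 value of the 17 differed by a median of 0.48, and for 2 of them by 1 or more. Bst2 was at 1.49 in those cells and Ifitm3, present in all cells, was the other. Oasl2 differed by 0.13 and Zbp1 by -0.33 in their positive cells. In the first comparison Rsad2 differed by -62.3 percentage points in share and by -1.05 in level among positive cells. For Ube2l6 in dedifferentiated HEC the share differed by -48.7 points and the level in positive cells by -1.27. Of the 7 members lower in dedifferentiated HEC, Irf1 went another way, with a share that differed by 1.32 points and a level in positive cells by -1.54, and Ifi27l2a differed by -23.6 points and by -4.23 in its 3 positive cells. Positive cells number as few as 3 in a group for Rsad2, and 1 for Isg20 and Mx2 in BEC and for Mx1 in dedifferentiated HEC. These levels thus rest on few cells for the rarest members.

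The 12 members with no difference of 1 in any main comparison were Ifit1, Irf9, Oasl1, Oas2, Oas3, Mx1, Mx2, Ifih1, Dtx3l, Samd9l, Eif2ak2 and Adar. Their differences ran from -0.74 to 0.69 between homeostatic HEC and BEC, from -0.92 to 0.05 between dedifferentiated and homeostatic HEC, and from -0.19 to 0.72 between inflamed and homeostatic HEC. Dtx3l, the ubiquitin ligase partner of PARP9, was detected in 90.9% or more of every group, while Mx2 (annotated as a polymorphic pseudogene), Oasl1 and Oas2 were at an FPKM of 1 in 20.3% of cells or fewer. Eif2ak2, the kinase PKR that halts translation, was at an FPKM of 1 in 27.3% of dedifferentiated HEC and in 59.5% or more of the other groups.

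Whether a few cells hold the whole set was read from how many members each cell held at FPKM 10 or above. Over BEC the lowest, median and highest numbers were 4, 12.5 and 27. Homeostatic HEC gave 3, 11 and 33, inflamed HEC 7, 16 and 31, and dedifferentiated HEC 2, 8 and 31. Cells with at least 19 of the 37 members numbered 4 of 32 BEC (12.5%, 3.51 to 29), 11 of 79 homeostatic HEC (13.9%, 7.16 to 23.5), 19 of 64 inflamed HEC (29.7%, 18.9 to 42.4) and 2 of 44 dedifferentiated HEC (4.55%, 0.555 to 15.5). Cells with many members thus occurred in every group, and their share was highest in inflamed HEC. At an FPKM of 10 they were outnumbered by cells with fewer in each group, but at an FPKM of 1 cells with at least 19 members numbered 17 of 32 BEC, 35 of 79 homeostatic, 45 of 64 inflamed and 4 of 44 dedifferentiated HEC, the majority of BEC and inflamed HEC. Just under this limit, 3, 6, 8 and 0 cells of the 4 groups had 17 or 18 members, and just over it 0, 1, 8 and 1 had 19 or 20.

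**Figure D4:**
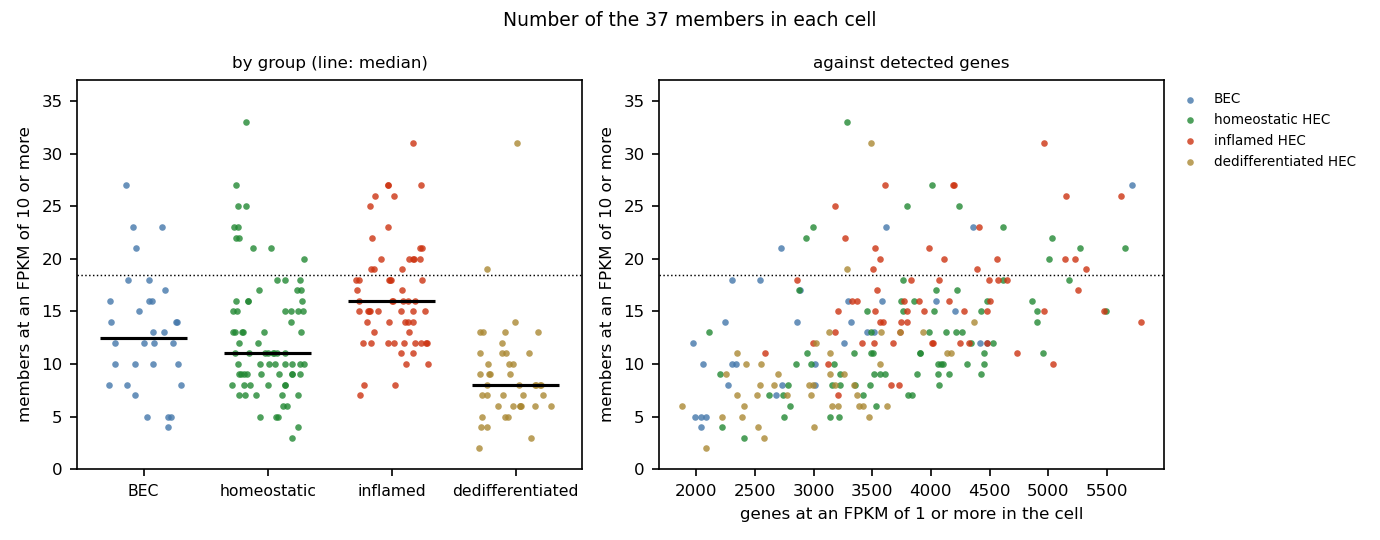
Number of members that each cell held at FPKM 10 or above, by group (left, line at the median) and against the number of genes detected at FPKM 1 in that cell (right); the dotted line separates cells with 19 or more of the 37. The highest homeostatic (33) and dedifferentiated (31) cells stand apart from their groups and have 3285 and 3493 detected genes, within the range of their groups.

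In untreated HEC the cell with the most members was homeostatic cell 28, with 33 at an FPKM of 10, followed by cell 67 with 27. Cell 28 had the group's highest value for 7 members (18.9%, where it was highest for 1.84% of all genes), among them Rsad2 (FPKM 1684), Ifi44 (2441), Isg20 (926) and Isg15 (582). No cell of the group was highest for more members, so a share above that of all genes follows in part from picking cell 28. In the same cell Stat2 was listed at 0, and Bst2 was 25.4, below most other cells. Cell 67 held the highest Ifit3 (2333), Irf7 (1049) and Ifit1 (892). Both cells carried 5 of the 6 HEC markers at an FPKM of 10, with 2 leukocyte markers in cell 28 and 1 in cell 67, and they had 3285 and 4008 detected genes.

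Dedifferentiated cell 39 was the most extreme. Of the 37 members, 36 were at an FPKM of 1 or more and 31 at 10 or more, against 19 in the next cell of its group. It was the group's highest cell for 12 members (32.4%, against 2.07% of all genes), including Ifit3 (4075), Usp18 (1632), Oasl1 (988), Ifi44 (926), Xaf1 (585) and Rsad2 (326), while Ifi27l2a was the 1 member listed at 0. This cell had 4 HEC markers, 5 of 7 blood endothelial markers and 1 leukocyte marker at an FPKM of 10, and 3493 detected genes. Its Irf7, at 13.6, ranked ninth in its group. In inflamed HEC the cell with the most members was cell 52 with 31, but it was highest only for Rsad2 (197). Inflamed cell 5 was highest for 5 members (13.5%, against 2.09% of all genes) and BEC 25 for 6 (16.2%, against 2.80%). Like dedifferentiated cell 39, these were picked as the cells highest for the most members in their groups. Shares above those of all genes follow in part from that choice. The maxima of the 37 members were spread over 19 BEC and over 17, 25 and 18 homeostatic, inflamed and dedifferentiated HEC.

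How far a member's total rested on few cells differed by gene. The 3 highest cells held a median of 69.5% of a member's summed FPKM in BEC, 38.5% in homeostatic, 35.1% in inflamed and 72.8% in dedifferentiated HEC. Over all genes past the filter the same medians were 82.3%, 45.7%, 49.9% and 75.6%, so the median member was less concentrated than the median gene in each group. Ifitm3 was the most evenly held in each group, with 25%, 9.13%, 8.78% and 14.9%. At the other end, 3 dedifferentiated cells held 99.3% of the Rsad2, 98.5% of the Ifit1 and 81.2% of the Ifit3 of their group, and 3 inflamed cells 80.7% of the Oasl1.

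**Figure D5:**
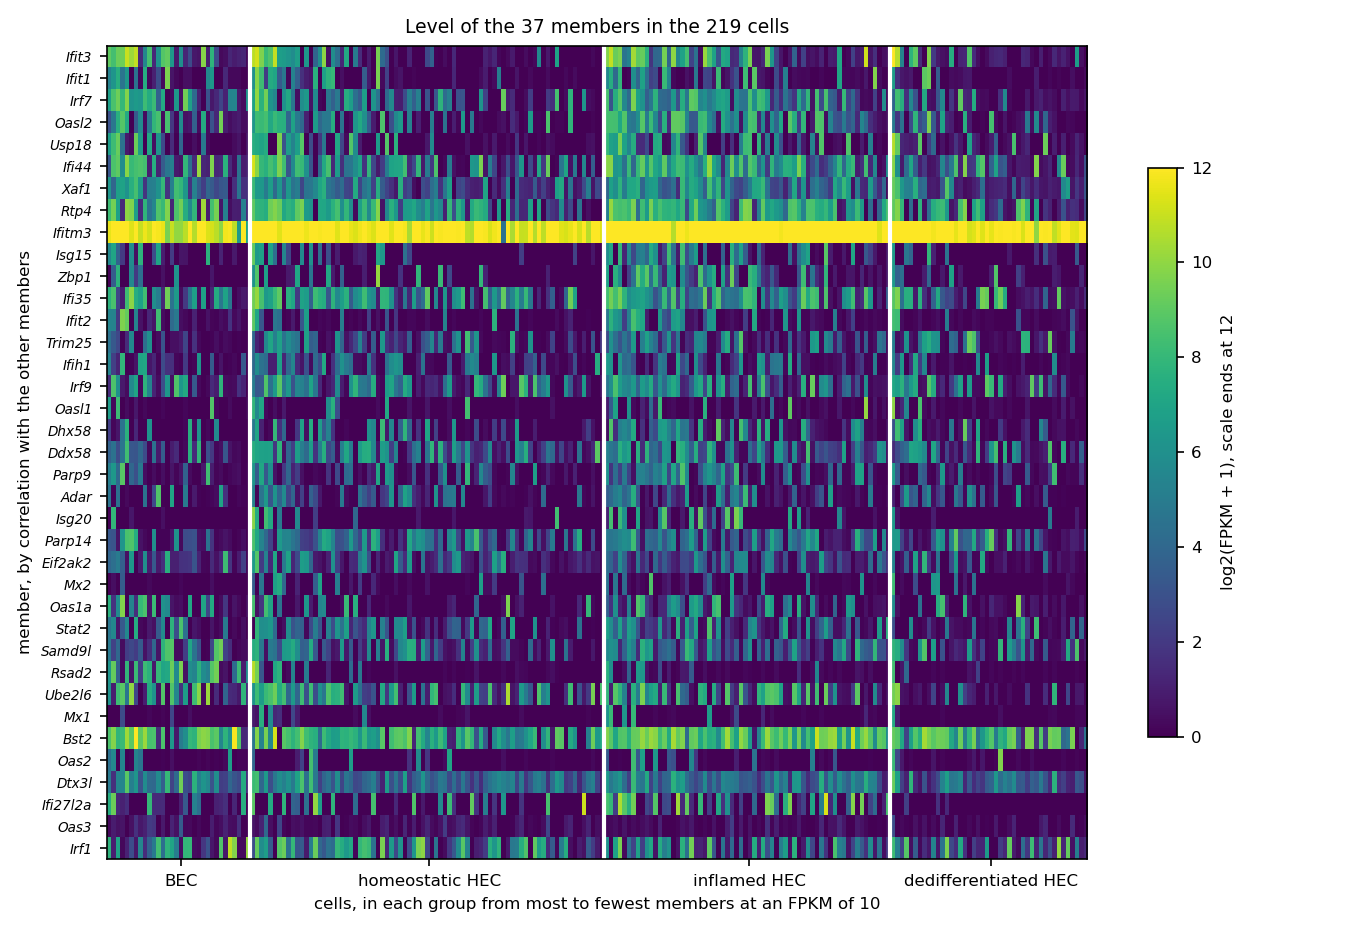
Log2(FPKM + 1) (colour, scale ending at 12) of the 37 members (rows, from the highest to the lowest mean correlation with the other members) in the 219 cells (columns), ordered within each group from most to fewest members at an FPKM of 10. The left edge of each group holds cells in which most rows are high, Ifitm3 is high throughout, and Irf1 in the last row follows no such order.

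Members varied together from cell to cell. The mean log2 value of the members at odd positions of the list and that of the members at even positions had a Spearman correlation of 0.86 over 32 BEC, 0.70 over 79 homeostatic, 0.67 over 64 inflamed and 0.48 over 44 dedifferentiated HEC. The 2 means come from the same libraries and so share their depth and quality. Their correlations with the number of detected genes were 0.56 and 0.55 in BEC, 0.42 and 0.48 in homeostatic, 0.18 and 0.13 in inflamed and 0.34 and 0.42 in dedifferentiated HEC, lower than between the means themselves in each group. The number of members at an FPKM of 10 correlated with approximated depth at -0.18, -0.01, -0.01 and -0.28, with the number of leukocyte markers at 0.13, -0.01, 0.06 and 0.05 and with the mean of the dissociation genes at 0.05, 0.03, 0.01 and -0.16.

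Gene by gene, each member was correlated with the mean of the other members within a group. The median over members was 0.37 in BEC, 0.33 in homeostatic, 0.28 in inflamed and 0.23 in dedifferentiated HEC, against 0.14, 0.10, 0.03 and 0.08 over other genes. The 95th percentile of other genes was 0.41, 0.29, 0.24 and 0.33, which lay above the median member in BEC and dedifferentiated HEC. Averaged over the 4 groups, Ifit3 followed the rest most closely (0.57), then Ifit1 and Irf7 (both 0.46), Oasl2 (0.42) and Usp18 (0.41). Lowest were Irf1 (-0.01), Oas3 (0.11), Ifi27l2a (0.13) and Dtx3l (0.13). Rsad2 (0.22) and Bst2 (0.16) also lay low, although both differ between groups. Among 3926 genes outside the lists that at least 20% of every group held at FPKM 1, those most like the mean of the members were Ddx60 (0.43), Gm12250 (0.41), Tgtp1, Gbp7 and Tgtp2 (each 0.38), as mean Spearman correlations over the 4 groups.

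Upstream of the members, the interferons themselves were not detected at an FPKM of 1 in these cells. All 18 listed interferon genes, of types I, II and III, were below an FPKM of 1 in every cell. The 1 value above 0 was Ifna12 in 1 homeostatic HEC, at 0.49. With 0 cells at an FPKM of 1, the interval of the share reached 10.9% in BEC, 4.56% in homeostatic, 5.6% in inflamed and 8.04% in dedifferentiated HEC.

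The receptor chains differed in level and direction. Ifnar1, a chain of the type I receptor, was at an FPKM of 1 in 96.9% of BEC, 97.5% of homeostatic, 100% of inflamed and 84.1% of dedifferentiated HEC, and was lower in dedifferentiated than in homeostatic HEC (-1.19). Ifnar2, the chain that Usp18 acts on, lay at 5.26 ± 3.33 in BEC, 6.67 ± 2.12 in homeostatic, 5.02 ± 2.89 in inflamed and 6.41 ± 2.96 in dedifferentiated HEC. It was higher in homeostatic HEC than in BEC (1.41) and lower in inflamed HEC (-1.65). Ifngr2 of the type II receptor was higher in homeostatic HEC than in BEC (2.11) and lower in dedifferentiated HEC (-1.5). Il10rb, shared by the type III and IL-10 receptors, was lower in HEC than in BEC (-3.76), and Ifnlr1, the specific type III chain, was below an FPKM of 1 in every cell.

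Among the kinases of the receptors, Jak1 was higher in homeostatic HEC than in BEC (2.16), and Jak2, a kinase of the type II receptor, was higher in inflamed HEC (1.61), with 35.4% and 78.1% of cells at an FPKM of 1. Of 11 genes of the pathway that induces interferon, Tmem173, the adaptor STING for cytosolic DNA, was higher in homeostatic HEC than in BEC (3.90) and lower in dedifferentiated HEC (-1.76). No other gene of that list reached 1 in the 3 comparisons. Of 6 negative regulators, Socs3 was higher in homeostatic HEC than in BEC (1.89) and lower in dedifferentiated HEC (-1.16), and Ptpn2, a phosphatase of JAK and STAT proteins, was higher in inflamed HEC (1.12).

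A further list of 31 interferon-stimulated genes had 7 higher and 0 lower in inflamed HEC (6.18% and 2.94% of all genes), with a median of 0.70. These were the chemokine Cxcl9 (2.19), which interferon gamma induces strongly, the GTPases Igtp (1.31), Gbp2 (1.18) and Iigp1 (1.17), and Slfn2 (1.38), Lgals9 (1.25) and Nmi (1.09), the partner of IFI35. Between homeostatic HEC and BEC, where 18.7% of all genes were higher and 4.52% lower, 4 were higher, namely Ifi47 (1.85), Irgm1 (1.5), Cxcl10 (1.36) and the immunoproteasome subunit Psmb8 (1.30), and 4 were lower, namely Lgals3bp (-1.94), Sp100 (-1.63), Psmb9 (-1.62) and Ifi203 (-1.33). In dedifferentiated HEC, where 0.894% of all genes were higher and 10.2% lower, 0 were higher and 3 lower, Lgals3bp (-1.52), Lgals9 (-1.24) and Phf11d (-1.11).

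Some values may share reads with near-identical or overlapping genes, since the handling of strand and of multiply mapped reads was not given in these sources. Ifit3 has a close copy listed as I830012O16Rik, at 1.76 in BEC, 0.80 in homeostatic, 1.5 in inflamed and 0.87 in dedifferentiated HEC, and Oas1a has the relatives Oas1b, Oas1c and Oas1g, each at a level of 0.87 or less. Ifitm2, next to Ifitm3, was also detected in all cells, with levels of 10.36, 10.78, 11.54 and 10.87. Parp9 and Dtx3l overlap on opposite strands, as do Irf7 and Phrf1, and Irf9 shares exon bases with Rnf31 on the same strand (GENCODE M21).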

How the data were processed

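The deposited table holds FPKM values from the authors, with 24049 gene symbols in rows and 220 cells in columns, written with 2 decimals, and 76.0% of values are 0. Per the labels' protocols, sorted cells went through the Fluidigm C1 for complementary DNA and the Nextera XT kit for libraries. The tools were CASAVA 1.8 and RSEM 1.2.18 on build mm10, per the submitters' processing notes. Of their roles, the annotation and any filter on cells, nothing is given in the sources used here.

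The members, and the pathway and marker lists, were chosen with earlier results of these data known. No count model was applied, because FPKM are normalised. Groups came from titles and treatments in the labels. Cell pairs with r above 0.9 on log2(FPKM + 1) were averaged, and doublets were not called. Depth was approximated from the steps of low FPKM values. Genes passed the filter where, averaged over the 4 groups, at least 10% of cells held the gene at FPKM 1. Members with full values were those past a difference of 1 in a main comparison or among the 5 highest mean levels (25 in all). Genes outside the members were named from the lists where past 1, and the 5 most correlated outside the lists. Pseudocounts, scalings, filters, cell sets and leaving out each cell were tried as alternatives. The direct comparison of inflamed with dedifferentiated HEC was added after the values were seen. The differences of means, the correlation of odd and even positions and the depth approximation were tested on simulated data with known values. The simulated differences were those of widely detected genes, and the other steps were not tested in this way. Promoter windows were RefSeq's and gene positions GENCODE M21's, both on GRCm38. Python 3.11.15, pandas 2.3.3, NumPy 2.4.6 and SciPy 1.17.1 were used. 1 gene of the pathway lists is not reported here.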

Additional observations from a re-analysis of the deposited data

How the results depend on the processing

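No paired analysis was possible because each library is 1 cell and the numbers in the titles only name cells. The 34 differences of members past 1 kept their direction under each alternative, except in dedifferentiated against homeostatic HEC for Irf1 (0.00396 after median-ratio scaling) and, with cells matched on gene number, for Irf7 (0.61) and Rtp4 (0.54). The cause of the changes below was not tested.

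Between homeostatic HEC and BEC, the 3 higher members became 0 at a pseudocount of 10 and after median-ratio scaling. They became 5 from arithmetic means and without cells with leukocyte markers. In that order 6.76%, 10.4%, 24.8% and 19.5% of all genes were higher (18.7% as reported). The 7 lower members became 11 at a pseudocount of 0.1 and 3 at a pseudocount of 10. They became 13 after median-ratio scaling and with matched gene number, and 4 without cells with leukocyte markers. In that order 8.68%, 1.86%, 11.3%, 10.4% and 4.69% of all genes were lower (4.52% as reported). Between dedifferentiated and homeostatic HEC, the 0 higher members became 3 after median-ratio scaling, from arithmetic means and with matched gene number, and the 7 lower became 1 at a pseudocount of 10 and 2 after median-ratio scaling and with matched gene number. Between inflamed and homeostatic HEC, the 17 higher members became 6 at a pseudocount of 10 (12 to 19 otherwise). Of all genes 1.35% were higher at a pseudocount of 10, 13.7% from arithmetic means and 17.1% at a pseudocount of 0.1 (6.18% as reported). The 0 lower members became 1 from arithmetic means, with matched gene number and without cells with leukocyte markers. In that order 8.81%, 5.15% and 4.60% of all genes were lower (2.94% as reported).

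The median member difference was 0.16 between dedifferentiated and homeostatic HEC after median-ratio scaling (-0.39 as reported). Between homeostatic HEC and BEC it was 0.02 with the filter at 30% and ran from -0.15 to 0.08 on leaving out each cell, so its sign is not settled. Between inflamed and homeostatic HEC it ran from 0.55 to 0.76 on leaving out each cell, and from 0.28 to 1.11 over the alternatives.

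Cells with 19 or more members numbered 17 BEC and 35, 45 and 4 homeostatic, inflamed and dedifferentiated HEC at an FPKM of 1, and 0, 4, 4 and 1 at an FPKM of 50. Without cells with leukocyte markers they numbered 2 BEC, 7 homeostatic and 10 inflamed HEC. The correlation of odd and even positions was 0.52 in inflamed HEC without cells with leukocyte markers, and Pearson's r was 0.75 in dedifferentiated HEC. With Tcf4 not counted as a leukocyte marker (chosen after seeing the data), 70 homeostatic and 58 inflamed HEC were left. These cells gave 15 higher members in inflamed HEC, where 6.70% of all genes were higher. At these depths a value of 0 does not show that a transcript was absent.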
